A study of Danio rerio with 14 samples.

Results

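The T-box gene tbx3a (RefSeq transcript NM_001101670, chromosome 5) and its relatives tbx2a and tbx2b were followed across all 14 RNA-seq libraries of a zebrafish study of bone morphogenetic protein (BMP) signaling. The genes were found by their symbols, and where a gene had several transcripts the one with the most counts was used. Of the 3 genes, 2 have a row among the 13832 genes with counts, tbx3a and tbx2a. tbx2b was not analysed here. Of the 2 genes with a row, only tbx3a had enough reads to pass the filter on low counts and be tested.

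T-box genes encode transcription factors that share a DNA-binding domain, the T-box, and control the identity of mesoderm, limbs, heart and other organs. Tbx2 and Tbx3 form a closely related pair within the family and are known in mammals mainly as transcriptional repressors. In the zebrafish gastrula, BMP ligands signal highest on the ventral side, where the receptor complex phosphorylates Smad transcription factors that enter the nucleus and switch on ventral genes. The Bmp2/7 heterodimer carries this activity, and embryos without bmp7a lack ventral tissue.

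The 6 groups, all whole embryos, differed in genotype, stage and treatment. In the first experiment, bmp7 mutant embryos treated with 10 µg/ml of the translation inhibitor cycloheximide (CHX) at 4 hpf (hours post fertilization) received an injection of 10 pg of human BMP2/7 heterodimer (3 libraries of 50 embryos) or no BMP2/7 (3 libraries of 50 embryos), and both groups carry the 4 hpf label, which is the time of treatment, the embryos having been collected later. In the second, untreated bmp7 mutant and wild-type embryos were collected at 8 hpf and at 6 hpf, with 2 libraries of 40 embryos in each group. CHX blocks the synthesis of new protein, so transcripts that still respond to BMP2/7 need no newly made intermediate. The mutants are homozygous for the sb1aub allele of bmp7a and came from homozygous parents that had been rescued as embryos by bmp7a mRNA. The wild-type libraries carry a heterozygous genotype, Aub-/+, in the headings of the count table, while their labels read wild-type. Parentage and line therefore cannot be told apart from the genotype. A group injected with carrier alone is not among those analysed, so the injection itself cannot be told apart from BMP2/7 protein.

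Library totals were 5034277 to 23153881 counts, the lowest in replicate 1 of the mutants at 8 hpf. bmp7a, the mutated gene, stood at 0.882 and 0.470 CPM (counts relative to the library total, scaled by TMM factors) in mutants at 8 hpf, against 40.3 and 43.8 CPM in wild-type embryos, and at 3.33 and 1.89 CPM in mutants at 6 hpf, against 63.9 and 60.1 CPM in wild-type embryos. In the CHX experiment, where every embryo was mutant, bmp7a was at 22.0, 28.9 and 26.6 CPM with BMP2/7 and at 18.5, 22.99 and 14.8 CPM without, so its level separates the genotypes in untreated libraries and checks nothing under CHX. The replicates are described as biological, and no 2 libraries of a group agreed within sampling noise.

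tbx3a was close to absent from CHX-treated mutants and abundant once BMP2/7 protein was added. The 3 libraries with BMP2/7 held 2748, 1199 and 960 tbx3a counts, or 117.03, 85.3 and 80.1 CPM. The 3 libraries with CHX alone held 1, 2 and 1 counts, or 0.0711, 0.105 and 0.0794 CPM. Each library with CHX alone lay below the level that 3 counts would give in it, and the lowest library with BMP2/7 was 763-fold above the highest without.

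The log2 fold change of tbx3a was 9.97 ± 0.29 (SE, n = 3 each; edgeR adjusted p = 6.12e-06). The pooled counts, 4907 with BMP2/7 and 4 with CHX alone, give a ratio of 1132 with a 95% counting interval of 442 to 4156, which covers counting error only. By edgeR, 2.25% of 9446 genes were called in this comparison, 1.91% higher and 0.349% lower with BMP2/7. With the replicate number as a block, 7.94% were called, and tbx3a had a log2 fold change of 9.96 (edgeR adjusted p = 7.89e-09). Among all genes tested, tbx3a ranked first by p and second by fold, behind nog2, a gene for the secreted BMP antagonist Noggin2. The study chose tbx3a as a direct BMP target on these same samples, so its call is not independent evidence of that choice.

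**Figure D1:**
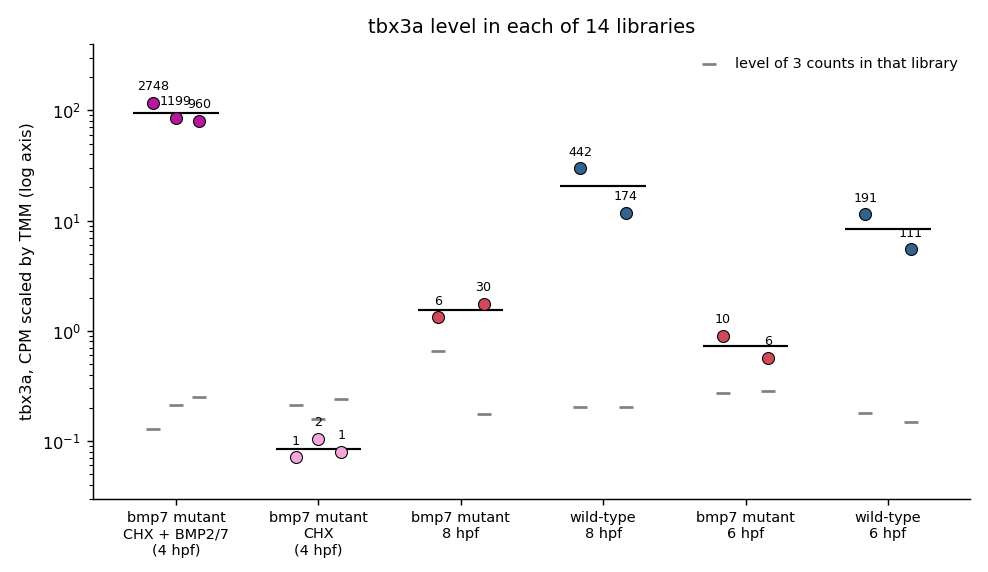
tbx3a level in each library, in CPM scaled by TMM on a log axis, with the raw count printed above each point. Lines mark group means and grey ticks the level of 3 counts in that library. CHX-treated mutants sit at 80.1 to 117.03 CPM with BMP2/7 and at 0.0711 to 0.105 CPM without, and untreated mutants lie below wild-type embryos at both stages.

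tbx3a was lower in untreated bmp7 mutants than in wild-type embryos, at both gastrula stages. The study used these libraries too when it chose tbx3a as a direct target, so the fall is not independent evidence of that choice. At 8 hpf, the mutants had 1.32 and 1.76 CPM (6 and 30 counts), against 29.7 and 11.8 CPM (442 and 174 counts) in wild-type embryos. At 6 hpf, the mutants had 0.900 and 0.567 CPM (10 and 6 counts), against 11.4 and 5.48 CPM (191 and 111 counts) in wild-type embryos. The groups did not overlap at either stage. The lower wild-type library was 6.68-fold above the higher mutant library at 8 hpf and 6.09-fold above it at 6 hpf. How large a share of all genes separated in this way was not counted. In whole embryos, fewer expressing cells and less RNA per cell cannot be told apart.

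At 8 hpf, tbx3a fell by 3.68 ± 0.59 on the log2 scale in mutants (SE, n = 2 each; edgeR adjusted p = 0.0159), and at 6 hpf it fell by 3.54 ± 0.62 (SE, n = 2 each; edgeR adjusted p = 0.0106). From pooled counts, the mutant level was 8.04% of wild-type at 8 hpf and 9.03% at 6 hpf. Called genes made up 3.15% of 10031 tested at 8 hpf (1.13% higher and 2.02% lower in mutants) and 15.4% at 6 hpf (6.34% higher and 9.10% lower). The 2 genotype differences themselves differed by -0.15 ± 0.90 on the log2 scale (edgeR adjusted p = 0.994), a comparison in which 0% of genes were called by the quasi-likelihood test of edgeR. Unadjusted, 556 of the 10031 genes had p under 0.05 there. The likelihood ratio test of edgeR called 21 genes, DESeq2 called 23, and the quasi-likelihood test called 3 with no filter and 2 in a fit of all 14 libraries. The call at 8 hpf was lost without replicate 1 of the mutants (adjusted p = 0.134), replicate 2 of the mutants (adjusted p = 0.156) or replicate 1 of the wild-type embryos (adjusted p = 0.0543), and that at 6 hpf without replicate 2 of the mutants (edgeR adjusted p = 0.0749).

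Between stages, tbx3a averaged 1.54 ± 0.310 CPM at 8 hpf and 0.734 ± 0.235 CPM at 6 hpf in mutants (SD, n = 2 each). In wild-type embryos it averaged 20.7 ± 12.7 CPM at 8 hpf and 8.46 ± 4.21 CPM at 6 hpf (SD, n = 2 each). The log2 fold change was 1.15 ± 0.67 in mutants (SE; edgeR adjusted p = 0.299; 10.9% of genes called) and 1.29 ± 0.50 in wild-type embryos (SE; edgeR adjusted p = 0.230; 1.75% of genes called). Neither stage difference passed the test, although the 8 hpf libraries lay above the 6 hpf libraries in both genotypes, by as little as 1.03-fold in wild-type embryos.

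Ordered by mean, tbx3a stood highest in CHX-treated mutants with BMP2/7 (94.1 ± 20.005 CPM, SD, n = 3), followed by wild-type embryos at 8 hpf, wild-type embryos at 6 hpf, mutants at 8 hpf, mutants at 6 hpf and CHX-treated mutants (0.0852 ± 0.0177 CPM, SD, n = 3). No neighbouring groups in this order overlapped, but the 2 wild-type stages and the 2 mutant stages, neighbours in it, did not differ by the test. The CHX libraries were treated and their stage at collection is not in the labels, and their TMM factors were 1.13 to 1.28, against 0.809 to 0.924 in untreated libraries, so levels across the 2 experiments carry no test.

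For tbx3a, the wild-type libraries differed more among themselves than those of the other groups. Replicate 1 had 2.53 times the tbx3a level of replicate 2 at 8 hpf and 2.08 times at 6 hpf, while within the other 4 groups the highest library was 1.33 to 1.59 times the lowest. Of 7073 genes averaging at least 5 CPM in wild-type embryos, 1.82% had as high a ratio at 8 hpf, 4.41% at 6 hpf and 0.749% at both stages.

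tbx2a, which is expressed later in the zebrafish eye and heart, was at or near 0 throughout. Its row (NM_001102384) held 1, 1 and 0 counts in the CHX libraries with BMP2/7, and 0 counts in all 3 libraries with CHX alone and in all 8 untreated libraries. The counts are too few for a fold or a test. Its row gave no detectable level in the untreated libraries, where 3 counts correspond to 0.148 to 0.662 CPM. The row of the BMP ligand gene bmp2b also held at most 1 count in any library. Whether such empty rows reflect absent RNA or the way reads were counted was not tested.

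Beyond tbx3a, 16 T-box genes had a row of counts. Of these, 8 could be tested under CHX and 9 in untreated embryos. With BMP2/7, 2 of the 8 rose (background 1.91%) and none fell (background 0.349%), with a median log2 fold change of 0.31 over the 8, against -0.0021 over all genes tested. With the replicate block, which pairs the CHX libraries, 4 of the 8 rose, with tbx16 and tbx20 added (422 of 9446 genes called higher). tbx5a and tbx20, like tbx3a itself, passed the filter on low counts only through the libraries with BMP2/7. The numbers of T-box genes that rose and their median are therefore descriptions. In mutants, 1 of 9 rose at 8 hpf (background 1.13%; median 0.44, against -0.02 over all genes). At 6 hpf 1 of 9 fell, a share near the background of 9.10% (median 0.31, against -0.04 over all genes).

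The nearest relative that moved with BMP2/7 was tbx5a, a gene of the Tbx2 subfamily needed for heart and pectoral fin formation. It had 5.03, 4.41 and 7.01 CPM (264 counts in all) in CHX libraries with BMP2/7, against 0.569, 0.840 and 0.794 CPM (34 counts in all) in those without. It rose by 2.90 ± 0.31 on the log2 scale (SE, n = 3 each; edgeR adjusted p = 0.00324). In untreated embryos it never exceeded 14 counts: 0 and 3 counts in mutants at 8 hpf, 0 and 0 in wild-type embryos at 8 hpf, 7 and 2 in mutants at 6 hpf, and 14 and 2 in wild-type embryos at 6 hpf. It was not tested there. Its copy tbx5b held at most 2 counts in any library.

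In the gene order of the GRCz12tu assembly, tbx5a is the protein-coding gene directly beside tbx3a on chromosome 5. The other measured genes within 5 places of tbx3a in that order are ddx54, rab14l and exosc2 beyond tbx5a, and mtfp1, lman2la and wbp1 on the opposite side. None of these 6 was called in the BMP2/7 comparison, where their log2 fold changes ran from -0.31 (wbp1) to 0.12 (rab14l), nor in either genotype comparison. tbx2a lies on chromosome 5 as well but has other neighbours, and tbx2b lies on chromosome 15 beside tbx4, which was not analysed here.

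In the Brachyury subfamily, ta (no tail), which directs notochord and posterior mesoderm formation, rose with BMP2/7 from an already high level of transcript. It had 2695, 2279 and 1836 CPM with BMP2/7, against 870, 972 and 913 CPM with CHX alone, a log2 fold change of 1.32 ± 0.13 (SE, n = 3 each; edgeR adjusted p = 0.00267). In mutants its log2 fold change over wild-type was -0.55 ± 0.25 at 8 hpf (edgeR adjusted p = 0.223) and 0.56 ± 0.25 at 6 hpf (edgeR adjusted p = 0.150), and neither passed the test.

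The measured genes of the Tbx6 subfamily were tbx6, tbx6l and tbx16, which act in paraxial mesoderm and somites, and mgaa. None of the 3 that could be tested under CHX was called with BMP2/7 without the block. tbx16 (spadetail), needed for the migration of trunk mesoderm cells, had 252 and 225 CPM in mutants at 6 hpf, against 470 and 340 CPM in wild-type embryos, and fell by 0.79 ± 0.20 on the log2 scale (SE, n = 2 each; edgeR adjusted p = 0.0310). Fitting 6 hpf on its own ended that call (edgeR adjusted p = 0.0752), as did 5 of 8 fits that left out a library (adjusted p of 0.0561 to 0.171) and a fit of all 14 libraries (adjusted p = 0.0505). Under CHX, tbx16 had a log2 fold change of 0.46 ± 0.23 with BMP2/7 (edgeR adjusted p = 0.562), which was called with the replicate block (log2 fold change 0.50, edgeR adjusted p = 0.0113). tbx6 (also called tbx24), which acts in somite segmentation, rose with stage, by 3.09 ± 0.34 on the log2 scale in mutants (edgeR adjusted p = 0.00249) and by 2.01 ± 0.32 in wild-type embryos (edgeR adjusted p = 0.0239; SE, n = 2 each). The call in wild-type embryos was lost in 5 of 8 fits that left out a library (edgeR adjusted p of 0.0559 to 0.114). Its genotype difference at 8 hpf, 1.04 ± 0.31, was not called (edgeR adjusted p = 0.101), nor were those of tbx6l and mgaa at either stage.

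In the Tbr1 subfamily, tbr1b, a gene known from the developing forebrain, was higher in mutants at 8 hpf. It had 5.29 and 6.05 CPM in mutants, against 1.08 and 0.676 CPM in wild-type embryos, with a log2 fold change of 2.697 ± 0.45 (SE, n = 2 each; edgeR adjusted p = 0.0184). Leaving out any 1 of the 4 libraries at 8 hpf ended this call (highest edgeR adjusted p = 0.143). eomesa (eomesodermin a), a maternal activator of endoderm and mesoderm genes, was called in none of these 3 comparisons.

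The Tbx1 subfamily gave no call, and its genes tbx18 and tbx22 held at most 3 counts in any library. tbx20, a heart gene, had 1.70, 1.99 and 5.51 CPM with BMP2/7, against 0.284, 0.420 and 1.51 CPM with CHX alone, a log2 fold change of 2.10 ± 0.71 (SE, n = 3 each; edgeR adjusted p = 0.289). In each group replicate 3 was the highest, and with the replicate block tbx20 was called (log2 fold change 2.14, edgeR adjusted p = 0.00168). tbx1, which patterns the pharyngeal arches, had at most 2 counts in any CHX library and 24.4 to 55.8 CPM in untreated ones, with log2 fold changes of 0.74 ± 0.23 at 8 hpf (edgeR adjusted p = 0.110) and 0.67 ± 0.23 at 6 hpf (edgeR adjusted p = 0.0785) in mutants over wild-type.

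**Figure D2:**
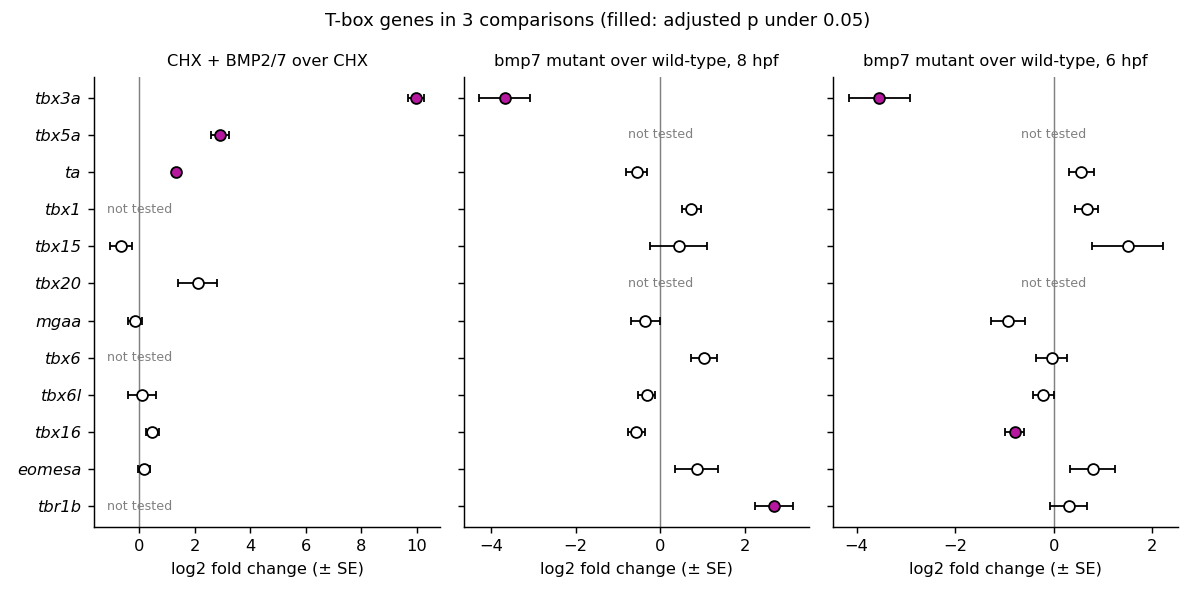
Log2 fold changes (± SE) of T-box genes for BMP2/7 under CHX (left) and for bmp7 mutants over wild-type embryos at 8 hpf (middle) and 6 hpf (right), filled where the edgeR adjusted p was under 0.05. tbx3a has the farthest point from 0 in each panel, at 9.97, -3.68 and -3.54, and its sign is opposite under CHX and in the mutants.

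As a share of the counts of all 17 T-box genes, tbx3a made up 2.87 ± 0.348% with BMP2/7, against 0.00513 ± 0.000519% with CHX alone (SD, n = 3 each). At 8 hpf its share was 0.137 ± 0.0173% in mutants, against 1.60 ± 0.899% in wild-type embryos, and at 6 hpf 0.0485 ± 0.00461% in mutants, against 0.525 ± 0.200% in wild-type embryos (SD, n = 2 each). These are shares of reads, not of molecules, since longer transcripts give more reads.

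The 8 genes whose log2 levels followed tbx3a most closely over the 14 libraries were msx3 (Pearson r = 0.978), smad6b (0.948), bcor (0.914), tle3b (0.898), smad9 (0.890), loxl2a (0.889), ppm1ab (0.888) and zfp36l1b (0.887), out of 8265 genes compared. The values are descriptions, since the libraries share groups and the 2 experiments stand apart. tbx3a varies most between the CHX groups, so the choice of these genes largely fixes a rise with BMP2/7, and their changes under CHX are descriptions too. All 8 were called higher with BMP2/7 under CHX (background 1.91%), tle3b no longer without replicate 1 of the CHX-only libraries (edgeR adjusted p = 0.0510). msx3, a homeobox gene of the Msx family, had 164, 132 and 100.4 CPM with BMP2/7, against 1.42, 4.88 and 4.05 CPM with CHX alone. It fell in mutants by 3.09 ± 0.33 on the log2 scale at 8 hpf (edgeR adjusted p = 0.00204) and by 1.89 ± 0.32 at 6 hpf (edgeR adjusted p = 0.00960; SE, n = 2 each). The call at 6 hpf was lost without replicate 2 of the mutants (edgeR adjusted p = 0.0655).

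smad6b, an inhibitory Smad, had a log2 fold change of 5.94 ± 0.50 with BMP2/7 (edgeR adjusted p = 0.00123), and smad9, a Smad activated by BMP receptors, one of 3.46 ± 0.42 (edgeR adjusted p = 0.00527; SE, n = 3 each). bcor, a corepressor gene, and tle3b, a Groucho-family corepressor gene, had smaller changes, 1.42 ± 0.16 (edgeR adjusted p = 0.00352) and 1.02 ± 0.13 (edgeR adjusted p = 0.00648). loxl2a, for a lysyl oxidase-like enzyme of the extracellular matrix, was at 32.3, 38.0 and 32.4 CPM with BMP2/7, against 0.0711, 0.210 and 0.0794 CPM with CHX alone. In wild-type embryos loxl2a was uneven, at 4.10 and 0.541 CPM at 8 hpf and at 6.11 and 0.494 CPM at 6 hpf, and its genotype differences were not called. The 8 genes were picked over all 14 libraries, untreated ones included, so their genotype calls are descriptions too. Among them, msx3, smad6b, smad9 and zfp36l1b are direct targets that the study chose on these same samples. Their calls are therefore not independent evidence of that choice. Of the 8, only msx3 was called lower in mutants at 8 hpf (background 2.02%). At 6 hpf msx3 and bcor were called lower (background 9.10%), bcor with an edgeR adjusted p of 0.0443. The call of bcor was lost in every fit that left out a library.

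From expression predicted with published single-cell data, the study placed tbx3a in its most ventral domain together with dlx2a, smtnl1, szl and tp63. As the representative of this domain, szl was then measured in embryos by in situ hybridization. With BMP2/7 under CHX, 2 of these 4 other genes rose, szl and dlx2a (background 1.91%). With the replicate block all 4 did (422 of 9446 genes called higher). All 4 are among the direct targets that the study chose on these same samples. Neither their rise under CHX nor their fall in mutants is therefore independent evidence of that choice. dlx2a and smtnl1 also passed the filter on low counts only through the libraries with BMP2/7, so the numbers that rose are descriptions. szl (sizzled), which encodes a secreted blocker of Chordin-cleaving proteases, had 393, 356 and 355 CPM with BMP2/7, against 10.9, 18.2 and 22.1 CPM with CHX alone, and rose by 4.45 ± 0.25 on the log2 scale (SE, n = 3 each; edgeR adjusted p = 0.000177). dlx2a, a homeobox gene of the ectoderm, held 836, 405 and 213 counts with BMP2/7, against 0, 4 and 0 counts with CHX alone (edgeR adjusted p = 0.000903), a ratio of pooled levels of 335 with a 95% counting interval of 131 to 1233. tbx3a and dlx2a thus had few or no counts without BMP2/7, whereas szl had 153 to 347.

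tp63, which specifies epidermis, had 36.3, 40.5 and 21.6 CPM with BMP2/7, against 6.54, 15.8 and 10.2 CPM with CHX alone, a log2 fold change of 1.61 ± 0.35 that missed the threshold (edgeR adjusted p = 0.0679). smtnl1, a smoothelin-like gene, had 10.4, 6.83 and 2.002 CPM with BMP2/7, against 0.853, 2.10 and 0.318 CPM with CHX alone (log2 fold change 2.51 ± 0.70, edgeR adjusted p = 0.175). The groups of smtnl1 overlapped. With the replicate block both were called, tp63 with an adjusted p of 0.00131 and smtnl1 with an adjusted p of 0.00127 by edgeR.

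In mutants at 8 hpf, szl and smtnl1 were called lower (background 2.02%). szl had 0 and 1 counts in mutants, against 441 and 200 in wild-type embryos (edgeR adjusted p = 0.00190), and the wild-type level was 466-fold that of mutants with a 95% counting interval of 83.3 to 18436. That call was lost without replicate 2 of the mutants (edgeR adjusted p = 0.0528). smtnl1 had 0 and 0 counts in mutants, against 28 and 23 in wild-type embryos (edgeR adjusted p = 0.0285), so the wild-type level was at least 12.4-fold higher, taking 3 counts over the mutant group as the floor. Leaving out any 1 of the 4 libraries at 8 hpf ended the call of smtnl1 (highest edgeR adjusted p = 0.241). dlx2a had 2 and 8 counts in mutants, against 51 and 33 in wild-type embryos (edgeR adjusted p = 0.0929), and tp63 had 8 and 6 counts in mutants, against 84 and 92 (edgeR adjusted p = 0.0865).

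At 6 hpf, szl was the 1 gene of these 4 that was called lower (background 9.10%). It had 0 and 0 counts in mutants, against 132 and 108 in wild-type embryos (edgeR adjusted p = 0.00326; wild-type at least 47.0-fold higher against 3 counts over the mutant group). dlx2a had 0 and 0 counts in mutants at 6 hpf, against 0 and 1 in wild-type embryos. tbx3a thus kept 16 counts over the mutant libraries at 6 hpf and 36 at 8 hpf, where szl had 0 and 1.

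**Figure D3:**
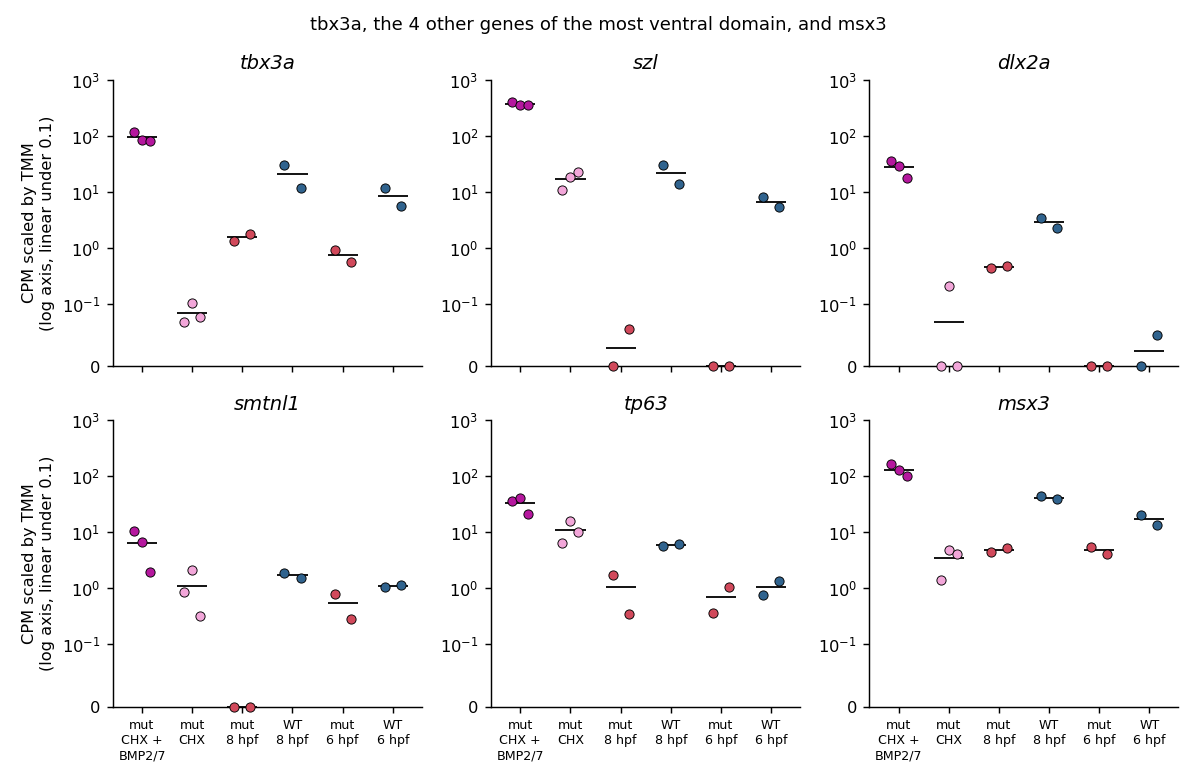
Levels of tbx3a, szl, dlx2a, smtnl1, tp63 and msx3 in each library (points) with group means (lines), in CPM scaled by TMM on a log axis that is linear under 0.1. Untreated mutants keep 0.567 to 1.76 CPM of tbx3a but at most 0.0587 CPM of szl, and all 6 genes have their highest group mean with BMP2/7 under CHX.

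Among the other 56 genes that the study lists as direct BMP targets, all with a row of counts, 45 of 52 tested under CHX were called higher with BMP2/7 (background 1.91%) and none lower, with a median log2 fold change of 1.86. In mutants 20 of 56 were called lower at 8 hpf (background 2.02%; median -1.78) and 24 of 56 at 6 hpf (background 9.10%; median -1.38), and none was called higher. The list was chosen by the study on these samples and is not independent evidence of these directions. tbx3a had a larger fold change under CHX than any of the other 52, and 5 of these 52 had a more negative fold change than tbx3a in mutants at 8 hpf.

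The level of tbx3a with BMP2/7 under CHX was 4.54 times its wild-type mean at 8 hpf and 11.1 times that at 6 hpf, ratios across experiments that carry no test. Of the other 56 targets, 35 also had a level above both wild-type means, with medians of 1.98 and 1.85 times over all 56. A total of 10 targets had a higher ratio to wild-type at 8 hpf than tbx3a, and 4 a higher ratio at 6 hpf.

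**Figure D4:**
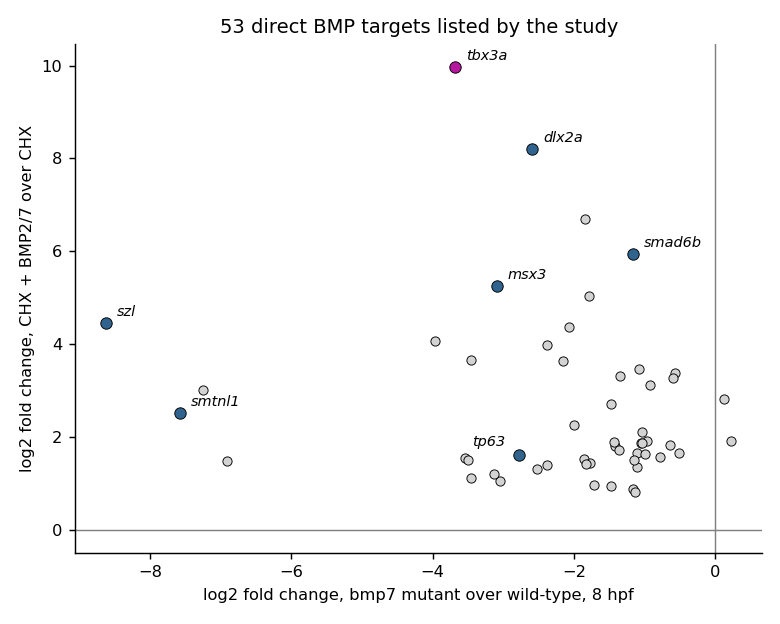
Log2 fold change with BMP2/7 under CHX against log2 fold change in bmp7 mutants over wild-type embryos at 8 hpf, for tbx3a (magenta) and the 52 other listed targets tested in both fits, with 6 of them named in blue. 51 of the 53 genes lie in the upper left, tbx3a is the highest, and the fitted positions of szl and smtnl1 along the lower axis depend on mutant counts of 1 and 0.

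Around tbx3a, the pathway that would carry the signal was measured as well. Among BMP ligand genes, bmp4 rose with BMP2/7 by 1.53 ± 0.21 on the log2 scale (edgeR adjusted p = 0.00919), the 1 gene called higher of 4 tested (background 1.91%), a call lost without replicate 1 of the CHX-only libraries (edgeR adjusted p = 0.0615). With the replicate block 1 of the 4 was also called lower with BMP2/7 (328 of 9446 genes called lower). bmp4 was lower in mutants, with bmp7a itself, the 2 ligand genes of 4 called lower at each stage (background 2.02% at 8 hpf and 9.10% at 6 hpf). Among receptors and receptor-activated Smads, 1 of 9 was called higher with BMP2/7, smad9 (background 1.91%). With the replicate block 4 were called higher, with smad5, bmpr2a and bmpr2b added (422 of 9446 genes called higher). In mutants the receptor gene bmpr1ba was called higher at 8 hpf (background 1.13%) and bmpr1aa lower at 6 hpf (background 9.10%), each 1 of 9. Among BMP inhibitors, 6 of 9 were called higher with BMP2/7 (background 1.91%) and none lower: szl, smad6a, smad6b, smad7, bambia and nog2, the first acting on Chordin-cleaving proteases, the Smads inside the cell, bambia as a decoy receptor and nog2 on the ligand. With the replicate block 8 were called higher, with bambib and nog1 added, and chrd (Chordin) lower (422 of 9446 genes called higher, 328 lower). chrd averaged 324 ± 41.7 CPM with BMP2/7, against 568 ± 136 CPM with CHX alone (SD, n = 3 each). nog2 held 1726, 708 and 587 counts with BMP2/7, against 0, 1 and 0 counts with CHX alone. In untreated embryos it stayed at 9 counts or fewer in every library. nog2, smad6a, smad6b and the receptor gene bmpr2a passed the filter on low counts only through the libraries with BMP2/7. The numbers of inhibitor and receptor genes called higher with BMP2/7 are therefore descriptions. In mutants, 2 of 8 tested inhibitors, szl and bambia, were called lower at both stages (background 2.02% at 8 hpf and 9.10% at 6 hpf). chrd, a dorsal antagonist of the ligand, was called higher at 8 hpf (background 1.13%; log2 fold change 1.13 ± 0.24, edgeR adjusted p = 0.0433). Whether the calls of chrd, bmpr1ba and bmpr1aa in mutants held without each library was not examined. The study chose bmp4, smad9, szl, smad6a, smad6b, smad7 and bambia as genes directly raised by BMP, and chrd as one directly lowered. It used these same samples, so their calls are not independent evidence of these directions.

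Some markers of ventral ectoderm, of mesoderm and of other lists were called in comparisons that also called tbx3a. Of 7 ventral ectoderm genes, 4 were called higher with BMP2/7 (background 1.91%; median log2 fold change 1.05), 4 were called lower in mutants at 8 hpf (background 2.02%; median -1.998) and 3 at 6 hpf (background 9.10%; median -0.66), where 3 of the other 4 had a positive fold change. foxi1, a gene of the ventral ectoderm, averaged 351 ± 29.9 CPM with BMP2/7, against 43.98 ± 11.6 CPM with CHX alone (SD, n = 3 each), and 0.882 ± 0.00111 CPM in mutants at 8 hpf, against 135 ± 12.7 CPM in wild-type embryos (SD, n = 2 each). Of the 7, the study chose gata2a, tfap2c, foxi1 and tp63 as direct targets on these same samples, so their calls are not independent evidence. The summed level of the 7 genes was 1843 to 2464 CPM with BMP2/7, against 1045 to 1618 CPM with CHX alone. In untreated embryos most of this sum was krt4, a keratin gene called in none of the 3 comparisons without the replicate block. It averaged 6618 ± 748 CPM in mutants at 8 hpf, against 5717 ± 797 CPM in wild-type embryos (SD, n = 2 each), and the sums of the genotypes overlapped. With the block, 5 of the 7 genes were called higher with BMP2/7 and krt4 lower (422 of 9446 genes called higher, 328 lower). Under CHX, krt4 averaged 251 ± 146 CPM with BMP2/7, against 404 ± 283 CPM with CHX alone (SD, n = 3 each). Without krt4, left out after its level was seen, the other 6 genes summed to 1715 to 2169 CPM with BMP2/7, against 782 to 894 CPM with CHX alone, to 367 to 439 CPM in mutants at 8 hpf, against 1276 to 1376 CPM in wild-type embryos, and to 609 to 637 CPM in mutants at 6 hpf, against 763 to 979 CPM in wild-type embryos. None of the 7 was at 0 in a group. Of 3 neural ectoderm genes tested, 1 was called higher with BMP2/7 (background 1.91%; median log2 fold change 1.35). With the replicate block, sox2 and sox3 were called higher with BMP2/7 (422 of 9446 genes called higher). sox2 passed the filter on low counts only through the libraries with BMP2/7. In mutants, 1 of the 3 was called higher at 6 hpf (background 6.34%).

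Of 5 mesoderm genes, 2 were called higher with BMP2/7 (background 1.91%), eve1 and ta, and 2 were called lower in mutants at each stage, drl and eve1 at 8 hpf (background 2.02%) and tbx16 and eve1 at 6 hpf (background 9.10%). With the replicate block 3 were called higher with BMP2/7, with tbx16 added, and 1 lower (422 of 9446 genes called higher, 328 lower). Of these mesoderm genes, eve1 is also among the direct targets that the study chose on these same samples. The summed level of the 5 genes was 2990 to 4139 CPM with BMP2/7, against 1587 to 2110 CPM with CHX alone. At 8 hpf it was 575 to 621 CPM in mutants, against 830 to 1028 CPM in wild-type embryos. At 6 hpf it overlapped, at 1099 to 1684 CPM in mutants, against 1254 to 1362 CPM in wild-type embryos. Of 3 organizer genes tested, 1 was called higher in mutants at 8 hpf (background 1.13%). No endoderm or enveloping layer gene was called in the 3 comparisons without the block. With it, 3 of 4 endoderm, 2 of 2 enveloping layer and 1 of 3 organizer genes were called lower with BMP2/7 (328 of 9446 genes called lower). gata5 of the endoderm and nog1 of the organizer were called higher. The part of a change in the number of ventral ectoderm or mesoderm cells in the tbx3a result was not tested. As a check of the labelled tissue, every measured gene of the ventral ectoderm, mesoderm, endoderm and organizer lists had counts in every group. In the neural ectoderm list, zic2b was at 0 in untreated mutants at both stages and in wild-type embryos at 8 hpf. In the enveloping layer list, krt5 was at 0 in both CHX groups. The 2 measured genes of late lineages (lyz and opn1sw1) summed to at most 0.378 CPM in any library.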

How the data were processed

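RNA was sequenced from 14 pools of whole zebrafish embryos. The authors prepared stranded libraries of polyadenylated RNA, mapped the reads on GRCz11 by the RNA-seq Unified Mapper and deposited raw counts per RefSeq transcript. Not given in the sources used here are the version of that mapper and the strand setting of the counting. The deposited table also holds log2 values and the authors' edgeR comparisons (fold changes, average expression, p-values and FDR), none of which was used. 14 gene symbols turned into dates were replaced by their transcript names. No sequence tables were at hand, so no sequence is shown, and gene order and chromosomes come from RefSeq on GRCz12tu, with no coordinates.

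The quasi-likelihood F-test in edgeR 4.0.16 under R 4.3.3 (TMM, filterByExpr with a minimum count of 10) was run in 2 fits, of 6 CHX libraries (9937 transcripts) and 8 untreated libraries (10555 transcripts). Called genes had an adjusted p (Benjamini-Hochberg) under 0.05 over all transcripts tested, and gene counts take 1 transcript per gene. Levels are CPM with TMM factors of all 14 libraries. Likeness is Pearson's r of log2(CPM + 0.5) over the libraries, for genes averaging at least 5 CPM in any group. Count ratios have exact binomial 95% intervals. Totals of 5034277 to 23153881 counts put 3 counts at 0.128 to 0.662 CPM. Groups follow the labels, and for untreated libraries the genotype in the library headings, which bmp7a levels match.

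Deviations from the group mean correlated between CHX libraries of 1 number (r = 0.406, 0.715 and 0.634), so the replicate number pairs them; the pairing comes from the data. Named are the 3 genes, bmp7a, every T-box gene called or above 1 CPM in a group, the other 4 genes of the most ventral domain, and the 8 genes most like tbx3a; other lists are given by counts with examples, and flanking genes by position. The genes and lists were chosen with earlier results of these data known. Alternatives were RLE factors, library size, no filter, DESeq2 1.42.0, the edgeR likelihood ratio test, the replicate block, all 14 libraries, each stage alone, counts summed per gene and leaving out each library. Tested on simulated data with changes of 8, 4 and 2-fold, in this order, the CHX fit (9937 transcripts) found 98.5%, 94% and 44.8% of them, with 18 false calls of 176. The untreated fit (10555 transcripts) found 97%, 64.2% and 23.9% at 8 hpf, with 12 false calls of 135, and 90.9%, 83.6% and 13.4% at 6 hpf, with 11 of 136.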

Additional observations from a re-analysis of the deposited data

How the results depend on the processing

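The rise of tbx3a with BMP2/7 was called in all 14 alternatives, with log2 fold changes of 9.78 to 10.16 without each library. In mutants, 9 of 9 other alternatives called tbx3a lower at each stage, and leaving out each library gave -4.22 to -2.87 at 8 hpf (5 of 8 called) and -3.99 to -2.90 at 6 hpf (7 of 8 called), a fit with 1 library in a group taking its spread from the other groups. The stage differences of tbx3a, 0.87 to 1.51 in mutants and 0.47 to 1.94 in wild-type embryos without each library, were called in none. The difference between the 2 genotype effects on tbx3a was -0.80 to 0.67 without each library and 0.12 with the replicate block, with no call. Scaled by library size only, tbx3a averaged 114.7 CPM with BMP2/7, in place of 94.1.

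In untreated libraries, same-numbered correlations between genotypes were -0.016 at 8 hpf and 0.232 at 6 hpf. Between stages they were 0.401 in mutants and 0.491 in wild-type embryos. Whether the number stands for anything shared by these libraries was not tested. The block gave tbx3a -3.39 at 8 hpf and -3.50 at 6 hpf. It raised the calls to 942, in place of 316, at 8 hpf and to 2408, in place of 1549, at 6 hpf. Under CHX, 213 genes were called, against 750 with the block, 375 by DESeq2 and 372 by the likelihood ratio test. Other counts over 1.5 times apart were, at 8 hpf, 951 (all libraries), 905 (DESeq2), 1010 (likelihood ratio), 629 (no filter) and 578 (stage alone), and at 6 hpf 2419 (all libraries) and 855 (stage alone). Stage counts were 1092 in mutants, against 1822 (all libraries), 1680 (likelihood ratio) and 1652 (block), and 176 in wild-type embryos, against 546, 639 and 525 for these and 577 (DESeq2) and 389 (no filter). Leaving out each library gave 89 to 192, 44 to 466, 262 to 1563, 54 to 1245 and 12 to 227 calls in these comparisons, and 0 to 6 for the genotype difference between stages, which had 0 calls, against 21 (likelihood ratio), 23 (DESeq2), 3 (no filter) and 2 (all libraries).

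Uncalled genes changed sign only where a library was left out. Their ranges under CHX were -0.0073 to 0.28 for eomesa, -0.37 to 0.14 for mgaa and -0.18 to 0.85 for tbx6l. At 8 hpf they were -2.58 to 0.34 for loxl2a, -0.79 to 0.22 for mgaa, -0.088 to 1.23 for tbx15 and -1.14 to 0.12 for zfp36l1b. At 6 hpf they were -2.13 to 1.51 for loxl2a, -0.31 to 0.17 for ppm1ab, -0.079 to 0.83 for tbr1b, -0.72 to 0.43 for tbx6 and -0.47 to 0.090 for tbx6l. The causes were not tested. With 2 libraries a group and 6 to 30 tbx3a counts in each mutant library, depth and library number limit the untreated values.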
